A study of Mus musculus with 8 samples.

Results

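The plasma miRNAs mmu-miR-652-3p, mmu-miR-128-3p and mmu-miR-1224-5p, written below without the species prefix, are 3 of 1881 mouse miRNAs on the array. They were chosen by their array signal, on the rule that its mean was lower than in controls after both imatinib and doxorubicin, so those differences are given as a description without a test. Imatinib (IMB) is a tyrosine kinase inhibitor and doxorubicin (DOX) an anthracycline that damages DNA. All mice were females of the outbred NMRI stock aged 3 months. The 9 IMB mice received 100 mg/kg by mouth in distilled water on each of 9 days, and the 9 DOX mice received 4 doses of 3 mg/kg in saline into the tail vein on alternate days. The 6 control mice (CTRL) received the solvents. Plasma was taken the day after the last dose and combined from 3 mice per array, which gave 3 DOX pools, 3 IMB pools and 2 CTRL pools. Differences between single mice are therefore not visible, and in pooled plasma fewer releasing cells and less miRNA released per cell cannot be told apart.

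A miRNA is a short RNA that guides Argonaute proteins to messenger RNAs, mostly through its seed, the bases 2 to 8 from its 5′ end. Many miRNAs circulate in plasma in vesicles or bound to proteins, and blood cells, endothelium and tissues all release them. miR-128 is known for its high level in brain neurons, and it is also made in other tissues. miR-652 is found in blood cells, among them monocytes and platelets. miR-1224 is a mirtron: its hairpin is a short intron cut out by splicing, which then enters miRNA processing without Drosha.

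The mature sequences are given because the members share neither a seed nor a locus; the seed is in capitals, all other bases are in lower case, and sequences are those of RefSeq on GRCm38.p6.
miR-652-3p: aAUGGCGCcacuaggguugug
miR-128-3p: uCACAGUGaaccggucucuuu
miR-1224-5p: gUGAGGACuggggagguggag
miR-652-3p lies at chrX:142739060-142739080 on the plus strand, within the span of Tmem164. miR-128-3p comes from 2 loci, at chr1:128202404-128202424 on the plus strand within R3hdm1 and at chr9:112118644-112118664 on the minus strand within Arpp21, and its mature sequence is the same at both. The array signal therefore cannot separate Mir128-1 from Mir128-2. miR-1224-5p lies at chr16:20604452-20604472 on the plus strand within Vwa5b2. No other mouse miRNA in the RefSeq table had the same bases 2 to 8 as any of the members.

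The hairpins show which strand each signal comes from, with the mature arms in capitals, the 5p arm first.
Mir652: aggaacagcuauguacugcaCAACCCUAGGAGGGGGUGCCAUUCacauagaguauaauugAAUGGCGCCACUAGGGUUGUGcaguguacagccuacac
Mir128-1: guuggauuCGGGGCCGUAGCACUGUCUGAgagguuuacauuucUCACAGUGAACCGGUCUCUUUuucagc
Mir128-2: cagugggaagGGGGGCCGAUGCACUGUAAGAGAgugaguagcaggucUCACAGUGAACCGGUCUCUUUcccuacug
Mir1224: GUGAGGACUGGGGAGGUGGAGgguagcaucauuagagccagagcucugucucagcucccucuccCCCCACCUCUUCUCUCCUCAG
The Mir1224 hairpin of 85 bases begins with GU and ends with AG, the bases at the ends of most introns, and both of its mature arms reach the hairpin's ends. The 5p arm of Mir1224 has 13 G among 21 bases, against 8 in miR-652-3p and 4 in miR-128-3p.

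Values are log2 signals scaled to each array's 75th percentile, where a step of 1 is a doubling, and the floor below which no order is read was 4.40. All members were called detected by the scanner software on 8 of 8 arrays and none was at the floor on any array. Each member had 2 probes of 15 spots. The software's own error on its total signal per miRNA was 8.77% to 11.1% for miR-652-3p, 8.18% to 13.0% for miR-128-3p and 8.03% to 8.79% for miR-1224-5p. The 75th percentile before scaling ran from 196 to 425 over the arrays, with the lowest and the highest both in IMB pools. The red cell index, the log2 signal of miR-451a minus that of miR-23a-3p, was 3.90 to 4.45 in the IMB pools, 2.68 to 3.15 in the DOX pools and 3.18 and 3.84 in the CTRL pools. Its reference miR-23a-3p was itself not level across groups, with means of 10.94 for IMB, 11.34 for DOX and 11.15 for CTRL. All arrays lay on 1 slide.

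miR-652-3p, an miRNA of blood cells, was slightly lower in every drug pool. The CTRL pools read 6.07 and 5.99, the IMB pools 5.69, 5.84 and 5.80, and the DOX pools 5.85, 5.82 and 5.77. All 6 drug pools lay below both CTRL pools, with a gap of 0.15 between the IMB and CTRL pools and 0.13 between the DOX and CTRL pools. That order depends on the scaling, since with no scaling IMB pool 2 read the highest of all pools. The group means were 6.03 ± 0.06 (SD, n = 2) for CTRL, 5.78 ± 0.08 (SD, n = 3) for IMB and 5.81 ± 0.04 (SD, n = 3) for DOX. IMB minus CTRL was -0.25 (SE 0.06), a ratio of 0.840, and DOX minus CTRL was -0.22 (SE 0.06), a ratio of 0.861. The standard errors come from a limma fit on all 8 arrays, and the comparisons share the CTRL pools.

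miR-128-3p was lower in every IMB pool and spread widely with DOX. The CTRL pools read 5.58 and 5.92, the IMB pools 5.14, 4.90 and 4.91, and the DOX pools 5.15, 5.70 and 5.34. The IMB pools did not overlap the CTRL pools, while DOX pool 2 lay above CTRL pool 1. The group means were 5.75 ± 0.24 (SD, n = 2) for CTRL, 4.98 ± 0.14 (SD, n = 3) for IMB and 5.40 ± 0.28 (SD, n = 3) for DOX. IMB minus CTRL was -0.77 (SE 0.20), a ratio of 0.588 and the lowest of the 294 miRNAs tested. DOX minus CTRL was -0.35 (SE 0.20), a ratio of 0.783. It was -0.18 without CTRL pool 2 and -0.23 without DOX pool 1, but -0.53 without CTRL pool 1 and -0.51 without DOX pool 2.

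miR-1224-5p, the mirtron arm, was lower in every drug pool. The CTRL pools read 11.44 and 11.53, the IMB pools 10.82, 10.75 and 10.85, and the DOX pools 10.996, 11.18 and 10.64. All 6 drug pools lay below both CTRL pools, and DOX pool 3 was the lowest of all. The group means were 11.48 ± 0.06 (SD, n = 2) for CTRL, 10.81 ± 0.05 (SD, n = 3) for IMB and 10.94 ± 0.27 (SD, n = 3) for DOX. IMB minus CTRL was -0.67 (SE 0.15), a ratio of 0.627, and DOX minus CTRL was -0.54 (SE 0.15), a ratio of 0.686. Among the 294 tested miRNAs these ranked 2 and 3 from the lowest.

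**Figure D1:**
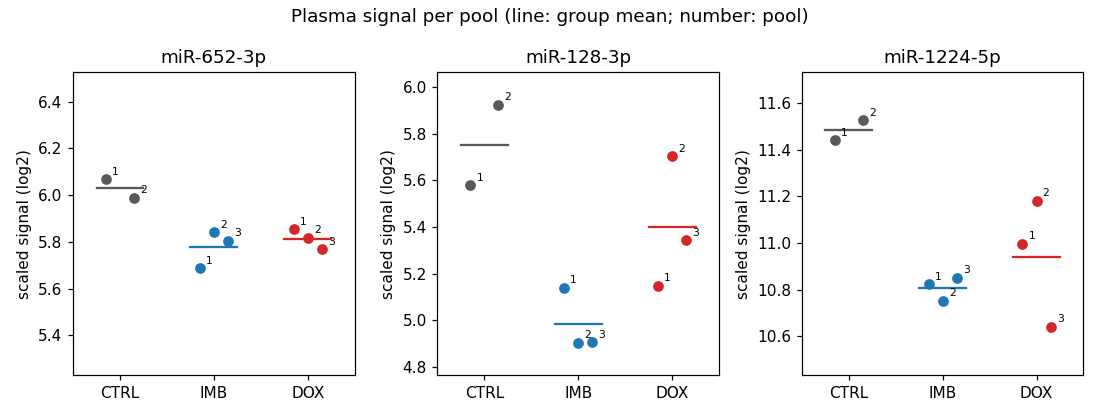
Scaled signal (log2, vertical axis) of each member in the CTRL, IMB and DOX pools; points are single pools with their number and lines are group means, and each panel spans the same range of 1.3 log2 units. All drug pools of miR-652-3p and miR-1224-5p lie below both CTRL pools, and DOX pool 2 of miR-128-3p (5.70) lies above CTRL pool 1 (5.58).

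The background for these patterns was broad. Of 294 tested miRNAs, 75 (25.5%) had a lower mean with both drugs than in CTRL, which is the rule that chose the members. The IMB pools lay wholly below the CTRL pools for 20 miRNAs (6.80%) and the DOX pools for 29 (9.86%). All 6 drug pools lay below both CTRL pools for 6 miRNAs (2.04%): miR-1224-5p, miR-18a-5p, miR-301a-3p, miR-652-3p, miR-350-3p and let-7i-5p. Nothing is read from the 2 members among these, since the rule used the same contrasts. The count of 6 became 15 without IMB pool 1, 10 without DOX pool 2, 21 without CTRL pool 1 and 26 without CTRL pool 2. Leaving out a pool relaxes the condition, so this count could only stay or rise.

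Ordered by the smaller of the 2 drug differences, miR-1224-5p ranked 1 of 294, miR-128-3p 4 and miR-652-3p 20. miR-3067-3p stood at rank 2, with -0.52 for IMB and -0.49 for DOX. miR-18a-5p stood at rank 3 (-0.51 and -0.45), and miR-140-5p at rank 5 (-0.33 and -0.49). The members are therefore not the 3 miRNAs with the largest joint differences.

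**Figure D2:**
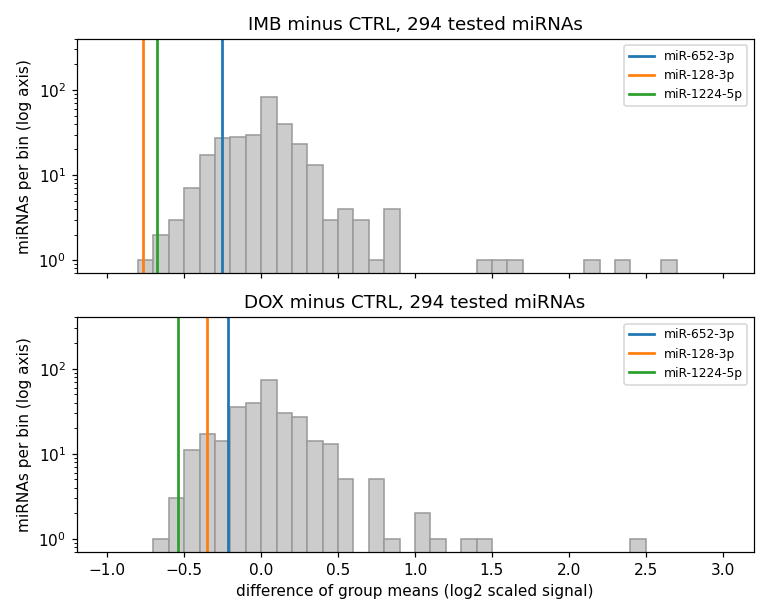
Histograms of the difference of group means (log2, horizontal axis) over the 294 tested miRNAs for IMB minus CTRL and DOX minus CTRL, with the number of miRNAs per bin on a log axis and a coloured line for each member. miR-128-3p (-0.77) and miR-1224-5p (-0.67) lie at the low end for IMB, and miR-652-3p (-0.25 and -0.22) lies inside the bulk of both histograms.

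Each member was then read from its probes separately. For miR-652-3p the brighter probe gave -0.25 for IMB and -0.24 for DOX. With the floor applied, its dimmer probe gave -0.21 and -0.12. That probe was not detected in IMB pool 1, where it was below the floor and 20% of its spots were above background, nor in DOX pool 1, where 26.7% were, so these differences are not read further. For miR-128-3p the brighter probe gave -0.81 and -0.43, and the dimmer probe, detected on 7 of 8 arrays, gave -0.68 and -0.22. The brighter miR-128-3p probe placed all IMB pools below both CTRL pools and let the DOX and CTRL pools overlap. The dimmer miR-128-3p probe was not detected in IMB pool 1, where 40% of its spots were above background. It read 4.48 and 4.43 in the other IMB pools, just above the floor, so its order is not read further.

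The miR-1224-5p probes disagreed in CTRL pool 1. On the brighter probe the CTRL pools read 12.24 and 12.14, the IMB pools 11.46, 11.41 and 11.54, and the DOX pools 11.62, 11.80 and 11.27, so no drug pool reached a CTRL pool. On the dimmer probe the CTRL pools read 9.52 and 10.42, the IMB pools 9.67, 9.49 and 9.47, and the DOX pools 9.86, 10.07 and 9.50, and on it CTRL pool 1 lay within the drug pools. The brighter probe's signal was 6.56 times the dimmer probe's in CTRL pool 1, and 3.30 to 4.21 times in the other pools. Both probes were well above background in all kept spots, with a coefficient of variation of 2.04% to 5.35% between the spots of a probe. On the dimmer probe IMB minus CTRL was -0.43 and DOX minus CTRL was -0.16, against -0.72 and -0.62 on the brighter one.

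**Figure D3:**
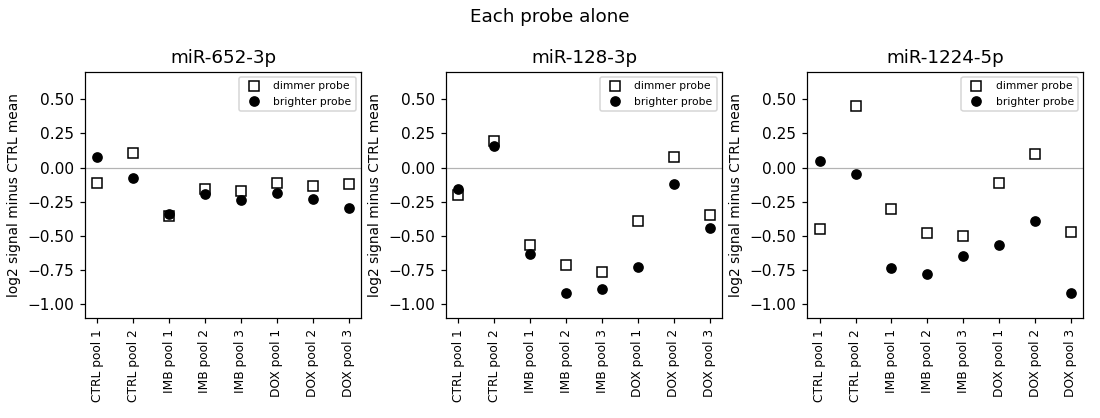
Signal of each probe alone (log2, minus that probe's CTRL mean, vertical axis) in the 8 pools on the horizontal axis; filled circles are the brighter probe of a member and open squares the dimmer probe. The probes of miR-1224-5p part in CTRL pool 1, where the brighter probe is at 12.24 and the dimmer probe at 9.52; the dimmer probe of miR-652-3p in IMB pool 1 (4.33) is drawn below the floor of 4.40 and has no order there.

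The other arm of a hairpin comes from the same precursor, so it was examined for each member. miR-652-5p was detected on 8 of 8 arrays. The CTRL pools read 4.73 and 5.24, the IMB pools 5.39, 5.20 and 5.51, and the DOX pools 5.27, 5.47 and 5.56. IMB minus CTRL was 0.38 (SE 0.18, limma adjusted p = 0.76) and DOX minus CTRL was 0.45 (SE 0.18, limma adjusted p = 0.58), neither past the threshold of 0.05, where 1.02% and 0.340% of the tested miRNAs passed. IMB pool 2 lay below CTRL pool 2, so the IMB and CTRL pools overlapped. The DOX pools all lay above both CTRL pools, by a gap of 0.025. How many tested miRNAs showed that order was not counted, while 9.86% showed the opposite order. The difference between the arms was not tested. CTRL pool 1 was the lowest pool for miR-652-5p and the highest for miR-652-3p. miR-128-1-5p, miR-128-2-5p and miR-1224-3p were not detected on any of the 8 arrays, so their 3p or 5p partners are the only arms of those hairpins detected here.

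**Figure D4:**
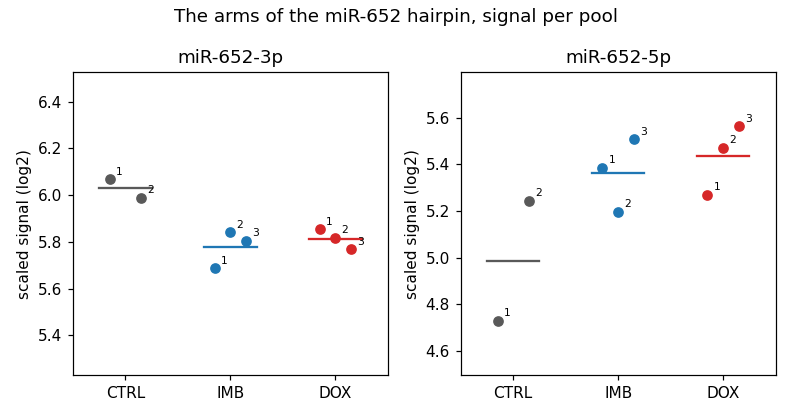
Scaled signal (log2, vertical axis) of miR-652-3p and miR-652-5p in the CTRL, IMB and DOX pools; points are pools with their number and lines are group means. The 3p arm is lower in all drug pools than in both CTRL pools, and the 5p arm of CTRL pool 1 (4.73) lies below all other pools.

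IMB against DOX is the contrast that the choice of members did not use, and none of the members passed in it. For miR-128-3p IMB minus DOX was -0.41 (SE 0.17, 95% interval -0.85 to 0.02, limma adjusted p = 0.41). All 3 IMB pools lay below all 3 DOX pools (2-sided exact permutation p = 0.1, which is the lowest value possible with 3 pools a side), by a gap of 0.0075; 8.16% of the tested miRNAs showed that order. For miR-1224-5p the difference was -0.13 (SE 0.14, 95% interval -0.47 to 0.21, limma adjusted p = 0.80; exact permutation p = 0.5). For miR-652-3p it was -0.04 (SE 0.05, 95% interval -0.16 to 0.09, limma adjusted p = 0.89; exact permutation p = 0.6).

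Over all 294 tested miRNAs 3 (1.02%) passed in IMB against DOX, 2 higher and 1 lower, and 32 had an unadjusted limma p under 0.05. Without IMB pool 1 the count was 20, with 0 of the members among them. The miR-128-3p difference was -0.26 without DOX pool 2, and that of miR-1224-5p was -0.01 without DOX pool 2 and -0.28 without DOX pool 3. That of miR-652-3p was 0.01 without IMB pool 1. The intervals leave room for a difference of either sign for each member, and with no scaling it was 0.27 for miR-652-3p and 0.18 for miR-1224-5p, while with the red cell index in the fit it was 0.20 for miR-128-3p.

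The arrays lay in 2 rows of the slide, each with at least 1 pool of every group, and the members were compared within each row. In row 1, with 1 CTRL, 1 IMB and 2 DOX pools, IMB minus CTRL was -0.38 for miR-652-3p, -0.44 for miR-128-3p and -0.62 for miR-1224-5p. In row 2, with 1 CTRL, 2 IMB and 1 DOX pool, these were -0.17, -1.02 and -0.72. DOX minus CTRL was -0.23, -0.15 and -0.35 in row 1, and -0.22, -0.58 and -0.88 in row 2, in the same order of miRNAs. These drug minus CTRL values come from the contrasts that chose the members, and nothing is read from their sign. IMB minus DOX was -0.15 in row 1 and 0.05 in row 2 for miR-652-3p, and -0.26 and 0.16 for miR-1224-5p. For miR-128-3p it was -0.29 and -0.44.

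miR-27a-3p and miR-27b-3p carry the first 8 bases of miR-128-3p, moved by 1 base, and so can pair with overlapping sites. The shared bases are in capitals.
miR-128-3p: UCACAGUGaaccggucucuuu
miR-27a-3p: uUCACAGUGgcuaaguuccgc
miR-27b-3p: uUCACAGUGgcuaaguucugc
For miR-27a-3p the CTRL pools read 8.95 and 9.25, the IMB pools 9.10, 8.52 and 8.99, and the DOX pools 9.21, 9.55 and 9.60. It differed by -0.23 (SE 0.22) with IMB and 0.36 (SE 0.22) with DOX, and miR-27b-3p by -0.07 (SE 0.17) and 0.28 (SE 0.17), none past the threshold (limma adjusted p from 0.77 to 0.98). IMB minus DOX was -0.58 (SE 0.20, limma adjusted p = 0.36) for miR-27a-3p and -0.34 (SE 0.15, limma adjusted p = 0.41) for miR-27b-3p, also not past the threshold.

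Of 13 miRNAs known for high levels in brain, 10 were not detected on any array, among them miR-124-3p and miR-9-5p, the best known neuronal miRNAs. The 3 tested were miR-128-3p, miR-132-3p and miR-212-3p, and miR-132-3p was above the floor only in IMB pool 1 (4.61). The mean of miR-212-3p was higher than in CTRL by 0.80 with IMB and 0.72 with DOX. These means are given without pool values or a standard error, so their spread is not judged. The only one of the 3 with a lower mean was miR-128-3p, which was chosen for it; over all 294 a lower mean was found for 115 with IMB and 120 with DOX (39.1% and 40.8%). In IMB against DOX 0 of 3 passed. Of 8 mirtron arms, 6 were not detected on any array and 2 were tested. miR-877-5p was higher in mean with IMB by 0.21 (SE 0.31, limma adjusted p = 0.97) and with DOX by 0.32 (SE 0.31, limma adjusted p = 0.91), neither past the threshold.

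Lists of miRNAs known for blood cells were read beside the members. In the red cell list, 7 of 8 were tested. Of these, 5 had a higher mean with IMB than in CTRL, with a median of 0.06, and 7 of 7 a lower mean with DOX, with a median of -0.47. Over all 294 tested miRNAs, 151 had a higher mean with IMB and 120 a lower mean with DOX. miR-451a, the main red cell miRNA, differed by 0.37 (SE 0.29) with IMB and -0.47 (SE 0.29) with DOX, and neither difference passed (limma adjusted p = 0.81 and 0.78). miR-144-3p, made from the same transcript as miR-451a, rose with IMB against CTRL by 0.82 (SE 0.07, limma adjusted p = 0.0077) and was higher with IMB than with DOX by 1.20 (SE 0.06, limma adjusted p = 0.00090). It was the only one of the 7 to pass in IMB against DOX, and its DOX minus CTRL of -0.38 (SE 0.07) did not pass (limma adjusted p = 0.20). The summed log2 level of the list was 15.03 to 15.38 in IMB, 14.24 to 14.81 in DOX and 14.57 to 15.29 in CTRL pools. In a fit that also held the red cell index, IMB minus CTRL and DOX minus CTRL were -0.33 and -0.12 for miR-652-3p, -0.48 and -0.68 for miR-128-3p, and -0.63 and -0.60 for miR-1224-5p. Against the fit without the index, the values of miR-652-3p moved from -0.25 and -0.22 and those of miR-128-3p from -0.77 and -0.35. The index of the IMB pools did not overlap that of the DOX pools, so index and drug are partly confounded in that fit. For its reference, miR-23a-3p, IMB minus DOX was -0.40 (SE 0.14, limma adjusted p = 0.36), beside 0.84 (SE 0.26, limma adjusted p = 0.32) for miR-451a. Every IMB pool read lower than every DOX pool for miR-23a-3p, by a gap of 0.02, an order found for 8.16% of the tested miRNAs. Part of the index gap between the drugs therefore lies in the reference.

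In the myeloid list 4 of 4 members had a lower mean with IMB (median -0.33) and 3 of 4 with DOX (median -0.23), and its summed level was 11.46 to 12.02 in IMB, 11.82 to 12.31 in DOX and 12.13 to 12.15 in CTRL pools. In the platelet list 4 of 4 tested members had a lower mean with IMB (median -0.24) and 1 of 4 with DOX (median 0.18). Its summed level was 11.98 to 12.44 in IMB, 12.46 to 12.75 in DOX and 12.55 to 12.57 in CTRL pools. The myeloid and platelet lists share miR-223-3p and miR-21a-5p, so their counts are not independent. In the lymphocyte list 3 of 3 tested members had a lower mean with each drug, with medians of -0.35 and -0.19 and summed levels of 8.30 to 9.44, 8.68 to 8.95 and 8.89 to 9.24. The DOX median is the value of miR-155-5p, which was above the floor only in CTRL pool 1 (4.78) and IMB pool 1 (4.66), so it rests on 1 CTRL pool. Over all tested miRNAs the medians were 0.01 for IMB and 0 for DOX, and 39.1% had a lower mean with IMB and 40.8% with DOX. In the muscle list 3 of 3 tested had a higher mean with each drug, against 151 and 143 of all 294. The muscle miRNA miR-1a-3p differed by 2.62 (SE 1.22) with IMB and 1.30 (SE 1.22) with DOX, and miR-133a-3p by 1.64 (SE 0.98) and 0.79 (SE 0.98), none past the threshold (limma adjusted p from 0.74 to 0.95). Both were at the floor in the CTRL pools, as was miR-133a-3p in IMB pool 3, so these differences depend on the floor. The liver miRNA miR-122-5p differed by 0.65 (SE 0.61) and 0.70 (SE 0.61), not past the threshold (limma adjusted p = 0.87 and 0.91). The part of these cells in the members' levels was not tested.

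Likeness between miRNAs was measured as the Pearson correlation of log2 signals over the 8 arrays, among the 245 miRNAs detected on all of them. It is a description, since the arrays share 3 groups and the members were chosen for a common order of those groups. miR-1224-5p was the closest of 244 to miR-652-3p (r = 0.83, n = 8 arrays) and the fourth closest to miR-128-3p (r = 0.80, n = 8). miR-652-3p and miR-128-3p were less alike (r = 0.55, n = 8; rank 12 and 29 from either side). miR-3067-3p was the closest to miR-1224-5p (r = 0.83) and came after miR-1224-5p for miR-652-3p (r = 0.73). For miR-128-3p the closest was miR-7040-5p (r = 0.85), followed by miR-350-3p (r = 0.84) and miR-5128 (r = 0.83), and the fifth was miR-130a-3p (r = 0.80). miR-5128 was among the closest 5 of every member (r = 0.64 for miR-652-3p and 0.76 for miR-1224-5p). miR-1892 (r = 0.60) and miR-18a-5p (r = 0.59) completed the list of miR-652-3p, and miR-18a-5p (r = 0.68) was also in that of miR-1224-5p.

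The members were also read under other settings. With normexp background correction miR-652-3p was -0.07 for IMB and 0.04 for DOX, and miR-128-3p was -0.23 and 0.02, while miR-1224-5p was -0.69 and -0.60. That setting also used the median spot signal and added an offset of 50, beside unscaled probe averages of 24.4 to 86.2 for miR-652-3p and miR-128-3p, and which of these choices moved the values was not tested. With no scaling between arrays, IMB pool 2 had the highest miR-652-3p signal of all pools (86.2, against 71.1 and 78.3 in the CTRL pools), so the groups overlapped. In the authors' deposited table miR-652-3p differed by -0.32 with each drug, miR-128-3p by -0.84 with IMB and -0.41 with DOX, and miR-1224-5p by -0.70 and -0.56.

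**Figure D5:**
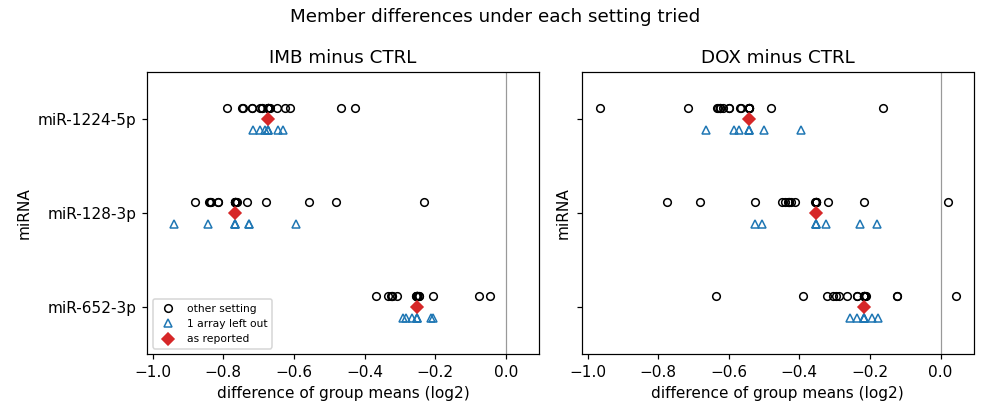
Difference of group means (log2, horizontal axis) of each member for IMB minus CTRL and DOX minus CTRL; the red diamond is the value reported, open circles are other settings, blue triangles leave out 1 array, and the grey line marks 0. Each IMB value lies below 0, and the DOX values above 0 are those of miR-652-3p (0.04) and miR-128-3p (0.02) with normexp background correction.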

How the data were processed

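Plasma RNA of 8 pools of 3 mice was labelled with Cy3 and hybridised to one-colour Agilent miRNA arrays. The deposited scanner files give each spot's intensity (linear); the submitters' processing notes name Agilent Feature Extraction 11.5.1.1, and background had been subtracted from the processed intensity per the file headers. How the authors made their deposited log2 table is not stated in the labels.

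For every probe the processed intensities of spots without an outlier flag were averaged, and detection required over 50% of those spots to be well above background. Arrays were brought to a common 75th percentile, taken over 454 probes detected on all 8, before a miRNA's probes were averaged without logs. Values were floored at 21.1 (log2 4.40) and then logged. Saturation flags were absent. A mouse miRNA was tested if all arrays of any group detected it, which left 294. limma 3.58.1 (R 4.3.3; lmFit, then eBayes; Benjamini-Hochberg over all 294, threshold 0.05) was fitted on all 8 arrays because there are 2 controls. The scripts were tested on simulated data. The labels call the pools biological replicates. The number of arrays limits the precision.

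The members and lists were chosen with earlier results of these data known. Named are the members, their other arms, miRNAs with the same or an offset seed, the 5 most alike to each member, the 3 nearest in joint difference, and up to 2 tested miRNAs of each marker list. miR-301a-3p and let-7i-5p were named, and the differences of miR-212-3p given, after their values were seen. Alternatives covered signal, background, scaling, filter, floor, probes, variance model, samples, blocks, the red cell index and leaving out each array; normexp used the median spot signal. Sequences are from RefSeq tables of GRCm38.p6.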

Additional observations from a re-analysis of the deposited data

How the results depend on the processing

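Under 28 alternatives the members passed in IMB against DOX in none (limma adjusted p from 0.21 to 1). The cause of the changes below was not tested. With normexp background correction IMB minus CTRL and DOX minus CTRL were -0.074 and 0.043 for miR-652-3p and -0.23 and 0.020 for miR-128-3p, and all 6 drug pools lay below both CTRL pools for 2 miRNAs in place of 6. That count was 15 with the 75th percentile over all probes or quantile normalization, 23 with no scaling, 13 with median scaling, 3 with a scale set by miR-24-3p with miR-23a-3p, and 14 with Agilent's total signal or the authors' deposited table. For miR-652-3p IMB minus DOX turned to 0.050 with the 75th percentile over all probes (DOX minus CTRL -0.30), 0.27 with no scaling, 0.35 on the miR-24-3p with miR-23a-3p scale and 0.0020 in the authors' deposited table. With no scaling, the median of the shifts of single tested miRNAs was -0.11 for IMB minus CTRL and -0.42 for DOX minus CTRL. The median differences themselves were then -0.04 and -0.32. In that setting miR-652-3p was -0.37 and -0.64, miR-128-3p -0.77 with DOX, and miR-1224-5p -0.97 with DOX and 0.18 for IMB minus DOX. In the values reported, miR-24-3p itself differed from CTRL by -0.21 with IMB and 0.15 with DOX, and miR-23a-3p by -0.21 and 0.19. On the miR-24-3p with miR-23a-3p scale the median shifts were 0.21 and -0.17, and the median differences 0.19 and -0.08. That scale gave -0.043 and -0.39 for miR-652-3p, and -0.47 with IMB and 0.25 for IMB minus DOX for miR-1224-5p. For miR-652-3p IMB and DOX minus CTRL were -0.33 and -0.30 with median scaling, -0.32 and -0.29 with Agilent's total signal, and -0.32 and -0.32 in the authors' deposited table. The dimmer probes alone gave -0.12 for miR-652-3p with DOX, and -0.43 and -0.16 for miR-1224-5p. With the red cell index in the fit miR-652-3p was -0.33 and -0.12, miR-128-3p -0.48 and -0.68, with IMB minus DOX at 0.20. The count passing in IMB against DOX was 3, and became 5 with a floor 4 times lower, 7 with Agilent's total signal and 0 with the index.

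Leaving out each array in turn, that count ran from 3 to 20, and the count wholly below the controls from 6 to 26. The count wholly below the controls can only stay or rise when a pool is left out. IMB minus CTRL, DOX minus CTRL and IMB minus DOX ran from -0.29 to -0.21, -0.26 to -0.18 and -0.068 to 0.0095 for miR-652-3p, from -0.94 to -0.59, -0.53 to -0.18 and -0.54 to -0.26 for miR-128-3p, and from -0.72 to -0.63, -0.66 to -0.39 and -0.28 to -0.01 for miR-1224-5p.

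With the replicate block the count was 4. IMB minus DOX could not move from -0.04, -0.41 and -0.13 for miR-652-3p, miR-128-3p and miR-1224-5p, since both drugs have the same pool numbers. IMB minus CTRL and DOX minus CTRL were then -0.25 and -0.21 for miR-652-3p, -0.73 and -0.32 for miR-128-3p, and -0.61 and -0.48 for miR-1224-5p. The pool numbers were not taken to pair the pools. Of 7 same-numbered pairs, 2 had deviations correlated above 0.1 (range -0.24 to 0.40). The deviations of the 2 CTRL pools from their mean mirror each other, so these correlations cannot decide whether the pools are paired. The dimmer probes of miR-652-3p and miR-128-3p were detected on 6 and 7 of 8 arrays, so signal over background limits both.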
